A study of Mus musculus with 31 samples.

Results

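The enzymes with which activated microglia and macrophages use arginine, make itaconate and make prostaglandins were followed by RNA-seq in mouse primary microglia with and without Cgas, the gene for the cytosolic DNA sensor cGAS. The 8 genes were Slc7a2, Ass1, Nos2, Gch1, Arg1, Arg2, Acod1 and Ptgs2. They were found by gene name, each in 1 row of the 54532 genes in the microglial count table, and all 8 were among the 13675 genes that passed the filter on low counts. The set was drawn up with results of these same libraries in view. Nos2 was chosen by its large difference between tau-treated and vehicle-treated Cgas+/+ cells, and Arg1 by its large difference between genotypes with vehicle. Those values are therefore given as a description, with no test.

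Cells came from the cortices of newborn Cgas+/+ or Cgas-/- pups, were grown in mixed glial cultures with granulocyte-macrophage colony-stimulating factor, and were shaken off and plated. Each genotype was treated for 6 h with vehicle, with tau fibrils at 2 μg per ml or with herring testis DNA (HT-DNA, a ligand of cGAS) at 1 μg per ml. There were 3 libraries in each of the 6 groups, 18 in all. The labels call the controls vehicle, the study's text speaks of untreated control cells, and what the vehicle was is not given in the sources used here, so a difference from vehicle may be one from untreated cells. A separate experiment held whole hippocampus from mice aged 8 to 9 months, 7 non-transgenic (Ntg) and 6 carrying the P301S tau transgene. The Cgas genotype of these 13 mice was not given. A germline Cgas deletion is present in every cell throughout development, so Cgas-/- cultures differ from Cgas+/+ cultures before any treatment. The libraries of a group are described as biologically independent, with no word on separate cultures or litters, so p-values measure the spread between these libraries, which may be technical.

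Arginine is shared out between competing enzymes in myeloid cells. The transporter encoded by Slc7a2 brings cationic amino acids, arginine among them, into the cell, and argininosuccinate synthase (Ass1) rebuilds arginine from citrulline. Inducible nitric oxide synthase (Nos2) turns arginine into nitric oxide and citrulline and needs tetrahydrobiopterin, whose synthesis starts with GTP cyclohydrolase (Gch1). The arginases Arg1, in the cytosol, and Arg2, in mitochondria, split arginine into ornithine and urea. Aconitate decarboxylase (Acod1) makes itaconate from an intermediate of the tricarboxylic acid cycle, and cyclooxygenase-2 (Ptgs2) makes the precursor of prostaglandins. Nos2, Acod1 and Ptgs2 are textbook markers of inflammatory activation, and Arg1 is the textbook mouse marker of alternative activation.

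All 8 are protein-coding genes. In GRCm38 (GENCODE annotation), Slc7a2 lies at chr8:40862396-40922308, Ass1 at chr2:31470207-31520672, Nos2 at chr11:78920787-78960254 and Gch1 at chr14:47153895-47189413. Arg1 lies at chr10:24915221-24927484, Arg2 at chr12:79130777-79156301, Acod1 at chr14:103046977-103056573 and Ptgs2 at chr1:150100031-150108227. RefSeq promoter sequence was at hand for 4 of the 8, Ass1, Gch1, Acod1 and Ptgs2. It is shown for all 4, and no link of the sequence to the responses was tested. Each run below is the stretch upstream of the first annotated start, 5′ to 3′ on the strand of the gene (GRCm38.p6), and capitals mark an NF-kB motif:
Ass1 (chr2:31470020-31470206, plus strand): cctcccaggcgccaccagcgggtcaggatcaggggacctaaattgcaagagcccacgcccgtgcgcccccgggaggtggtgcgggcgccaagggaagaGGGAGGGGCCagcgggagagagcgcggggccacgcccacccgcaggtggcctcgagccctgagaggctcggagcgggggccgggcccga
Gch1 (chr14:47189414-47189663, minus strand): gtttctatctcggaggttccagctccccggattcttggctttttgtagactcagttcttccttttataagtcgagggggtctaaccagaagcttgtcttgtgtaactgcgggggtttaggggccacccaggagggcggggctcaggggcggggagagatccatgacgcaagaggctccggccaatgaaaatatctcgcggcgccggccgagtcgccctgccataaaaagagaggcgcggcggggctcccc
Acod1 (chr14:103046762-103046976, plus strand): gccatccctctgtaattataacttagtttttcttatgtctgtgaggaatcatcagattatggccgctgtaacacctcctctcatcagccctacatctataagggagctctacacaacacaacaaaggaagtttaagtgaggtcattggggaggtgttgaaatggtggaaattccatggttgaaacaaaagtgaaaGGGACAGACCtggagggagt
Ptgs2 (chr1:150099781-150100030, plus strand): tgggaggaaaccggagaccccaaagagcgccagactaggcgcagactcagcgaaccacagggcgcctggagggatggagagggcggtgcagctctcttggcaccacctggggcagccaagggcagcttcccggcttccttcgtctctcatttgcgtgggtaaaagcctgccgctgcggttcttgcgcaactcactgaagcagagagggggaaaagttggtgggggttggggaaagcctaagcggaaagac
The NF-kB motif was searched as GGGA, any 4 bases and CC, and the interferon-stimulated response element as GAAA, any 2 bases and GAAA, both on either strand, in windows of 300 bases around the RefSeq start. The NF-kB letters occurred once in the Ass1 window, 152 bases before the RefSeq start, and once in the Acod1 window, 55 bases before its RefSeq start. In both genes the first annotated start, where the printed run ends, lies upstream of the RefSeq start. The capitals therefore lie closer to the end of the run than these distances. The NF-kB letters occurred in neither the Gch1 nor the Ptgs2 window, and the second motif occurred in none of the 4. Of 32851 promoters of the same length, 20.7% held the first motif and 3.44% the second. A match is a description of letters and not a binding site, and the absence of a match says only that these letters are not in the window.

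Total counts ranged from 17037459 to 25174764 per microglial library and from 25953296 to 35779977 per hippocampal library. Levels are given as CPM, the read count scaled to a common library size with trimmed-mean factors, which allows comparison of 1 gene between libraries and not of different genes. Cgas itself lay between 18.8 and 44.3 CPM in the 9 Cgas+/+ libraries and between 3.76 and 7.45 CPM in the 9 Cgas-/- libraries, so the genotype labels hold in every library. The microglial markers Csf1r and Trem2 were abundant in all 18, while Siglech was at 0 in every vehicle library. Summed levels of the 13 microglial markers differed between genotypes, at 5266 to 5403 CPM in Cgas+/+ and 3552 to 3732 CPM in Cgas-/- cells with vehicle. The 12 markers of other macrophages and monocytes summed to 705 to 775 CPM and 259 to 281 CPM in the same groups, mostly from Siglec1, Ms4a7, Clec12a and Mrc1, with Cd209f at 0 throughout. F13a1 in that list went the other way, at 0.270 to 0.665 CPM and 1.01 to 2.35 CPM. Neutrophil markers summed to 85.4 to 102 CPM and 31.3 to 39.7 CPM, mostly from Mmp8. S100a8 went the other way, at 2.57 to 4.21 CPM and 4.22 to 5.02 CPM, and Ly6g, S100a9 and Retnlg were at 0 in every library. These shifts lie beside each genotype difference below, and their part in it was not tested. Oligodendrocyte lineage markers, mostly Cspg4, lay between 568 and 721 CPM in every group, fibroblast and vessel markers reached 119.55 CPM (Cgas+/+ with HT-DNA, mostly Kdr), and astrocyte, neuron and T cell markers stayed at or under 16.9, 3.44 and 15.1 CPM. Library 1 of the Cgas-/- HT-DNA group stood apart from its replicates, with chi-square over degrees of freedom across genes of 22.4 and 28.05 against them, where every other pair of microglial replicates lay between 2.32 and 10.7. In bulk RNA, fewer cells of a type and less RNA per cell cannot be told apart.

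**Figure D1:**
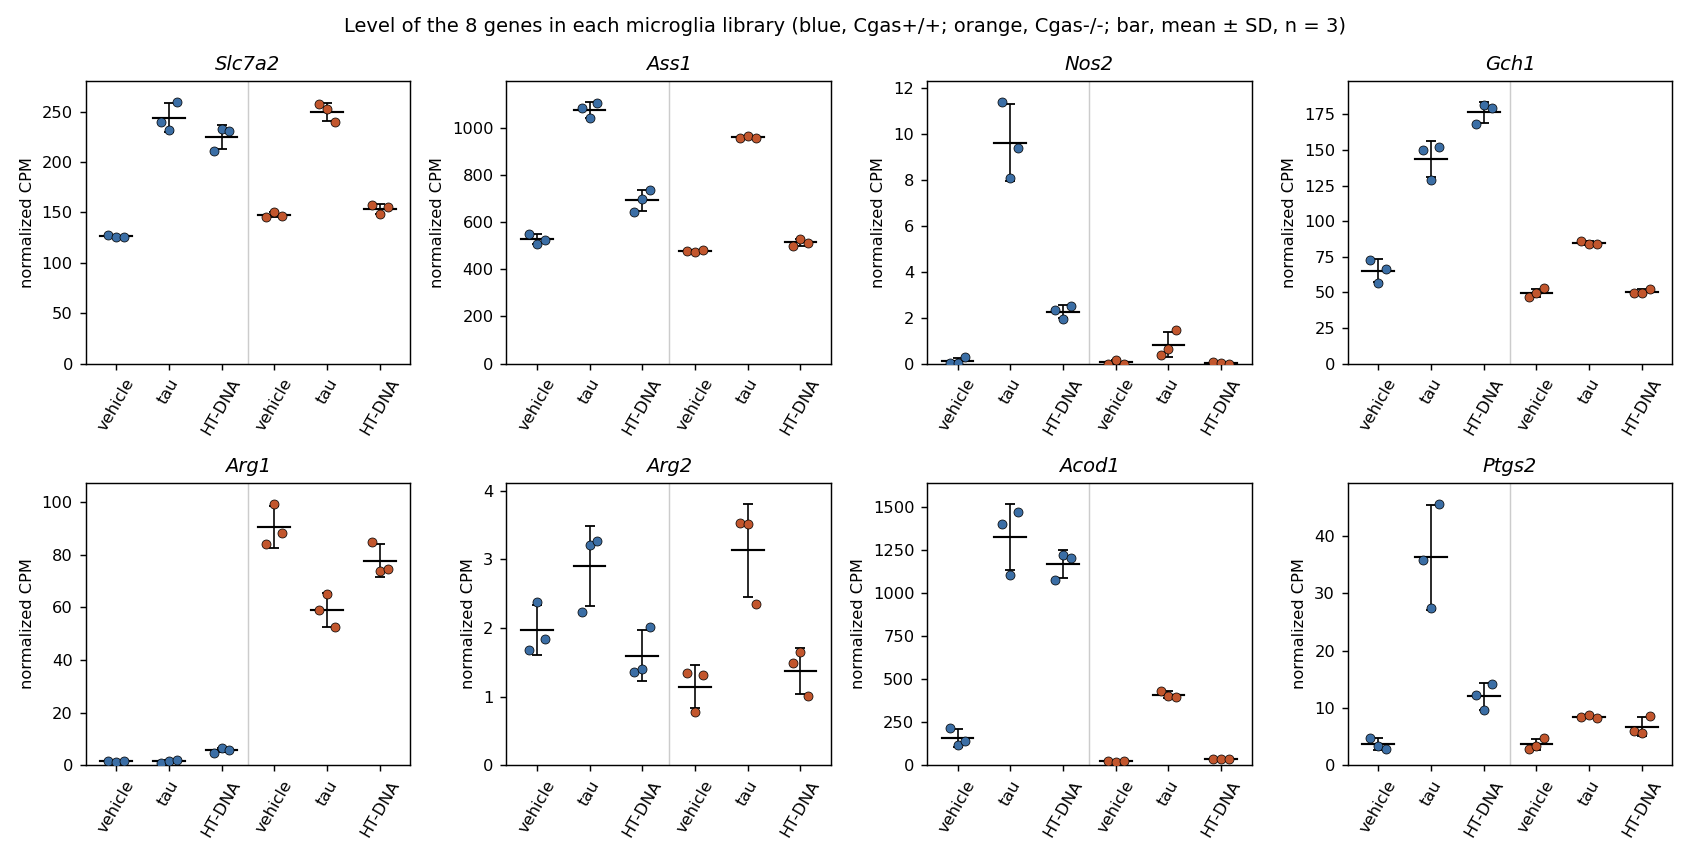
Normalized CPM of each of the 8 genes (vertical axes, from 0, on a scale of their own per gene) in the 18 microglial libraries by treatment, with Cgas+/+ in blue and Cgas-/- in orange. Points are libraries and bars the mean ± SD of 3. Nos2 is highest in Cgas+/+ cells with tau, at 8.08 to 11.4 CPM, whereas Arg1 is at 52.5 CPM or more in every Cgas-/- library and at 6.68 CPM or less in every Cgas+/+ library.

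The genes that supply arginine were higher with tau than with vehicle in both genotypes. Ass1 stood at 550.2, 507 and 525 CPM in Cgas+/+ cells with vehicle, at 1084, 1040.3 and 1106 CPM with tau and at 645, 699 and 736 CPM with HT-DNA. The Cgas-/- libraries stood at 477, 474 and 481 CPM with vehicle, at 958, 964 and 959 CPM with tau and at 499.9, 531 and 512 CPM with HT-DNA. Every tau library lay above every other library of its genotype. The log2 difference between tau and vehicle was 1.03 (SE 0.04) in Cgas+/+ and 1.01 (SE 0.04, adjusted p = 1.37e-16) in Cgas-/- cells. Adjusted p-values are those of edgeR's quasi-likelihood test with Benjamini-Hochberg adjustment over all genes, and a gene was called at an adjusted p under 0.05 and an absolute log2 difference over 1. The difference between these 2 responses was -0.02 (SE 0.06, adjusted p = 0.904), the smallest among the 8 genes. HT-DNA separated the genotypes: Ass1 was 1.31-fold higher than with vehicle in Cgas+/+ cells (log2 difference 0.39, SE 0.04, adjusted p = 1.23e-08) and 0.11 (SE 0.04, adjusted p = 0.294) higher on the log2 scale in Cgas-/- cells, and the responses differed by -0.29 (SE 0.06, adjusted p = 4.72e-04). The call of Ass1 with tau in Cgas-/- cells rests on the fold threshold alone. It was lost in 4 of 12 other fits, with values down to 0.995. These were the fits by DESeq2, with another scaling, without the low-count filter and with only the compared groups.

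Slc7a2, the transporter, was also higher with tau in both genotypes and with HT-DNA where Cgas was present. Its levels were 127, 126 and 126 CPM with vehicle, 240.3, 232 and 259.7 CPM with tau and 211, 233 and 231 CPM with HT-DNA in Cgas+/+ cells. Cgas-/- cells had 146, 151 and 147 CPM with vehicle, 257, 253 and 239.9 CPM with tau and 157, 148 and 155 CPM with HT-DNA. Tau and HT-DNA libraries thus overlapped in Cgas+/+ cells and were far apart in Cgas-/- cells, where HT-DNA overlapped vehicle. No response of Slc7a2 passed the fold threshold. Tau gave a log2 difference of 0.95 (SE 0.05) in Cgas+/+ and 0.76 (SE 0.05, adjusted p = 1.76e-13) in Cgas-/- cells, and the responses differed by -0.19 (SE 0.06, adjusted p = 0.0791). HT-DNA gave 0.83 (SE 0.05, adjusted p = 8.62e-15) and 0.06 (SE 0.05, adjusted p = 0.692), a difference of -0.78 (SE 0.07, adjusted p = 2.01e-10). With vehicle, Slc7a2 was 1.17-fold higher in Cgas-/- cells.

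Nos2 was near 0 with vehicle and lower in Cgas-/- than in Cgas+/+ cells with either agent. The 3 Cgas+/+ libraries with vehicle held 1, 1 and 5 Nos2 counts (0.0443, 0.0433 and 0.270 CPM), those with tau 209, 171 and 181 counts (11.4, 8.08 and 9.38 CPM) and those with HT-DNA 43, 36 and 46 counts (2.34, 1.94 and 2.51 CPM). In Cgas-/- cells the counts were 0, 3 and 0 with vehicle, 9, 15 and 37 with tau (0.397, 0.628 and 1.45 CPM) and 1, 1 and 0 with HT-DNA. In order of level, Cgas+/+ with tau, Cgas+/+ with HT-DNA and Cgas-/- with tau did not overlap each other and lay above the 3 remaining groups, which overlapped.

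In Cgas+/+ cells the Nos2 rate was 87.6 times that of vehicle with tau and 20.7 times with HT-DNA (exact 95% counting intervals 42.2 to 219 and 9.77 to 52.6), a description of the libraries that chose the gene. Such intervals cover counting error only. Without Cgas, the Nos2 rate with tau was 16.9 times that of vehicle (5.51 to 84.1), over 3 vehicle counts. The fitted log2 difference was 3.91 (SE 0.74) and went from 3.21 to 7.16 with single libraries left out, the latter without Cgas-/- vehicle library 2, which held all 3 counts. Nos2 passed the low-count filter only through the Cgas+/+ libraries. Its differences within Cgas-/- cells, and between genotypes with HT-DNA, are therefore given with no test. The tau responses of the genotypes differed by -2.47 (SE 1.54), which was not called. The level reached was lower: with tau, the Cgas+/+ rate was 11.3 times the Cgas-/- rate (8.65 to 14.9). HT-DNA gave 125 Nos2 counts in Cgas+/+ and 2 in Cgas-/- cells, a ratio of 76.6 (20.8 to 639), and the fitted difference of Cgas-/- from Cgas+/+ was -6.00 (SE 0.66). Within Cgas-/- cells, the fitted excess of tau over HT-DNA was 4.57 on the log2 scale (SE 0.78). The Cgas-/- tau libraries were far apart, at 0.824 ± 0.552 CPM (SD, n = 3), against 9.62 ± 1.67 CPM (SD, n = 3) in Cgas+/+ cells with tau.

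Gch1, the entry enzyme of cofactor synthesis for nitric oxide synthase, was highest in Cgas+/+ cells with HT-DNA. Levels were 72.9, 56.8 and 66.2 CPM with vehicle, 149.6, 129 and 152 CPM with tau and 168, 182 and 179 CPM with HT-DNA in Cgas+/+ cells. They were 47.1, 49.8 and 52.8 CPM with vehicle, 86.1, 83.7 and 84.2 CPM with tau and 49.8, 49.6 and 52.5 CPM with HT-DNA in Cgas-/- cells. The HT-DNA and vehicle libraries overlapped in Cgas-/- cells and were far apart in Cgas+/+ cells, where HT-DNA also lay above tau (tau against HT-DNA -0.30, SE 0.06, adjusted p = 4.74e-04, within the fold threshold). HT-DNA gave a log2 difference of 1.43 (SE 0.07, adjusted p = 2.10e-16) in Cgas+/+ and 0.02 (SE 0.07, adjusted p = 0.953) in Cgas-/- cells, and the responses differed by -1.41 (SE 0.10, adjusted p = 5.13e-12). Tau gave 1.14 (SE 0.07) in Cgas+/+ and 0.76 (SE 0.07, adjusted p = 1.05e-09) in Cgas-/- cells. The tau responses differed by -0.38 (SE 0.10, adjusted p = 0.0142), a call that was lost without Cgas-/- vehicle library 3 (adjusted p = 0.0598) or without Cgas+/+ tau library 3 (adjusted p = 0.0572). Relative to Cgas+/+ cells, Gch1 in Cgas-/- cells was lower with HT-DNA (-1.80, SE 0.07, adjusted p = 4.03e-19) and stood at -0.76 (SE 0.06, adjusted p = 8.29e-11) with tau, within the fold threshold.

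Arg1 was the member that was higher without Cgas under every treatment. In Cgas+/+ cells it lay at 1.60, 1.43 and 1.46 CPM with vehicle, at 0.928, 1.80 and 2.02 CPM with tau and at 4.83, 6.68 and 5.90 CPM with HT-DNA. The Cgas-/- libraries lay at 84.1, 99.3 and 88.1 CPM with vehicle, at 59.1, 65.1 and 52.5 CPM with tau and at 84.8, 73.9 and 74.5 CPM with HT-DNA. The lowest Cgas-/- library was thus above the highest Cgas+/+ library by a wide margin. With vehicle, where the gene was chosen, Cgas-/- exceeded Cgas+/+ by 5.91 on the log2 scale (SE 0.14). In libraries the choice did not use, the excess was 5.20 with tau (SE 0.14, adjusted p = 3.47e-21) and 3.74 with HT-DNA (SE 0.11, adjusted p = 1.91e-21), 36.7-fold and 13.4-fold.

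Arg1 also differed between treatments within a genotype. In Cgas+/+ cells tau libraries overlapped vehicle, HT-DNA libraries lay above both, and tau stood below HT-DNA (log2 difference -1.86, SE 0.21, adjusted p = 4.15e-08). In Cgas-/- cells the 3 tau libraries were the lowest of the 9, at a log2 difference of -0.62 (SE 0.08) from vehicle and of -0.40 (SE 0.08, adjusted p = 4.23e-04) from HT-DNA, both within the fold threshold. HT-DNA overlapped vehicle there, at a log2 difference of -0.22 (SE 0.08).

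Arg2 was measured with 15 to 84 counts per library and showed no genotype difference past the thresholds. Its levels in Cgas+/+ cells were 1.68, 2.38 and 1.835 CPM with vehicle, 2.24, 3.21 and 3.27 CPM with tau and 1.36, 1.40 and 2.02 CPM with HT-DNA. In Cgas-/- cells they were 1.34, 0.782 and 1.32 CPM, 3.53, 3.52 and 2.35 CPM, and 1.48, 1.645 and 1.003 CPM in the same order of treatments. Tau libraries lay above vehicle and HT-DNA in Cgas-/- cells and overlapped vehicle in Cgas+/+ cells. Arg2 rose with tau in Cgas-/- cells, by 1.44 on the log2 scale (SE 0.27, adjusted p = 1.90e-04), against 0.56 (SE 0.25) in Cgas+/+ cells, and the difference between the responses did not pass the test (0.87, SE 0.37, adjusted p = 0.175). With vehicle, Cgas-/- cells stood at a log2 difference of -0.77 (SE 0.29) from Cgas+/+ cells, within the fold threshold and with no overlap of the libraries. With tau the genotypes differed by 0.10 (SE 0.24) and overlapped. In Cgas-/- cells tau exceeded HT-DNA by 1.18 (SE 0.26, adjusted p = 0.00118), or by 0.99 without Cgas-/- HT-DNA library 3, under the fold threshold.

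Acod1, the itaconate enzyme, was higher with HT-DNA by a larger step where Cgas was present than where it was absent, and higher with tau in both genotypes. In Cgas+/+ cells it stood at 218, 117 and 143 CPM with vehicle, at 1403, 1105 and 1468 CPM with tau and at 1074, 1222 and 1204 CPM with HT-DNA. Without Cgas it stood at 24.1, 21.2 and 23.0 CPM with vehicle, at 432, 405 and 396 CPM with tau and at 34.4, 36.7 and 36.3 CPM with HT-DNA. In Cgas+/+ cells the agents overlapped, with tau over HT-DNA by 0.18 (SE 0.12, adjusted p = 0.256), whereas in Cgas-/- cells every tau library was above every HT-DNA library, by 3.52 on the log2 scale (SE 0.14, adjusted p = 3.43e-17). HT-DNA raised Acod1 7.31-fold in Cgas+/+ cells (log2 difference 2.87, SE 0.13, adjusted p = 1.27e-16). Without Cgas the log2 difference was 0.65 (SE 0.15, adjusted p = 0.0232), within the fold threshold and with no overlap of the libraries. Without HT-DNA library 1 of that genotype, the difference was 0.67 with an adjusted p of 0.0571.

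The tau response of Acod1 was larger without Cgas, at a log2 difference of 4.17 (SE 0.15, adjusted p = 3.41e-18) against 3.05 (SE 0.13), and the responses differed by 1.12 (SE 0.19, adjusted p = 2.17e-04). The level reached with tau was nevertheless lower in Cgas-/- cells, by a log2 difference of -1.69 (SE 0.12, adjusted p = 3.27e-12). With vehicle, Cgas-/- cells started at -2.81 (SE 0.14) relative to Cgas+/+ cells. With HT-DNA the genotypes were 32.6-fold apart (-5.03, SE 0.15, adjusted p = 1.38e-21), and the HT-DNA responses differed by -2.22 (SE 0.20, adjusted p = 5.46e-10).

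Ptgs2 overlapped between the genotypes with vehicle (log2 difference -0.01, SE 0.25) and was apart with tau. Cgas+/+ cells had 4.79, 3.42 and 2.86 CPM with vehicle, 35.8, 27.4 and 45.6 CPM with tau and 12.2, 9.59 and 14.2 CPM with HT-DNA. Cgas-/- cells had 2.90, 3.34 and 4.71 CPM with vehicle, 8.47, 8.71 and 8.22 CPM with tau and 6.04, 5.58 and 8.57 CPM with HT-DNA. Neither the tau nor the HT-DNA libraries overlapped between genotypes. Tau gave a 9.71-fold difference in Cgas+/+ cells (log2 3.28, SE 0.19) and raised Ptgs2 2.28-fold in Cgas-/- cells (log2 1.19, SE 0.22, adjusted p = 1.21e-04). The responses differed by -2.09 (SE 0.30, adjusted p = 3.26e-05), and with tau Cgas-/- cells were 4.28-fold below Cgas+/+ cells (-2.10, SE 0.17, adjusted p = 2.27e-11). HT-DNA gave 1.69 (SE 0.21, adjusted p = 1.14e-07) in Cgas+/+ cells and 0.86 (SE 0.22, adjusted p = 0.0497) in Cgas-/- cells, the latter within the fold threshold. Their difference of -0.82 (SE 0.31) was at the edge of the test, with an adjusted p of 0.0433 that rose to 0.218 without Cgas-/- vehicle library 3 and was at or above 0.05 without Cgas-/- vehicle library 2, Cgas-/- HT-DNA library 1 or 2, Cgas+/+ vehicle library 2 or 3, or Cgas+/+ HT-DNA library 1 or 3.

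**Figure D2:**
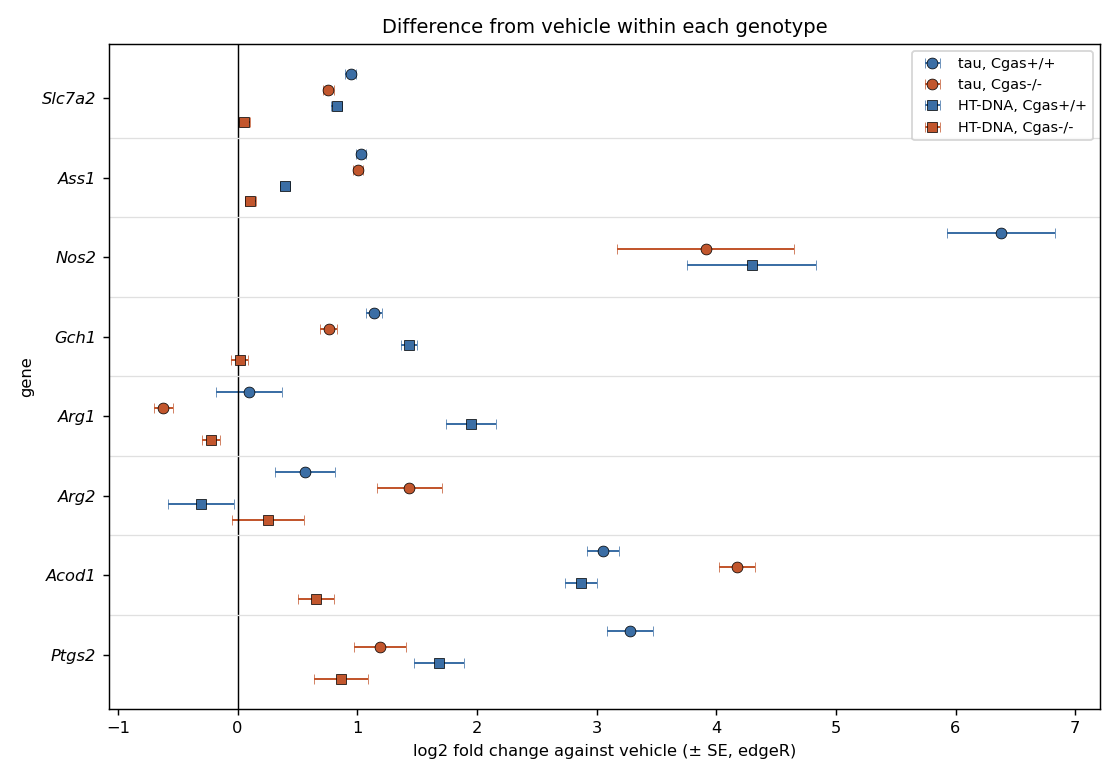
Log2 difference from vehicle (horizontal axis, ± SE) of the 8 genes for tau (circles) and HT-DNA (squares) in Cgas+/+ (blue) and Cgas-/- (orange) cells. The orange squares of Slc7a2, Ass1 and Gch1 lie between 0.02 and 0.11, whereas the orange circles of the same genes lie between 0.76 and 1.01. Nos2 with HT-DNA in Cgas-/- cells is left out, since both groups held 3 counts or fewer in all.

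Counted over the set, 5 of the 8 genes were called with tau in Cgas+/+ cells (Nos2, Ptgs2, Acod1, Gch1 and Ass1, all higher), where 3.41% of all genes were called and 2.89% were called higher. That comparison chose Nos2, so nothing is read from the count. Tau in Cgas-/- cells called 5 of 8, all higher (Acod1, Nos2, Arg2, Ptgs2 and Ass1), against 2.73% of all genes, or 2.46% called higher. Nos2 was in the test only through the Cgas+/+ libraries, and DESeq2 called these genes except Ass1. HT-DNA in Cgas+/+ cells called 5 of 8, all higher (Nos2, Acod1, Arg1, Ptgs2 and Gch1), against 8.08%, or 5.29% called higher. Nos2 and Arg1 were chosen by comparisons that hold these vehicle libraries. Without Cgas, HT-DNA called 0 of 8 by edgeR and 0 by DESeq2, and 0 without HT-DNA library 1, with 4 genes at an unadjusted p under 0.05 (Acod1, Arg1, Ass1 and Ptgs2), where 3 of all genes (0.0219%) were called and 12.3% were at an unadjusted p under 0.05. The comparisons within a genotype share their vehicle libraries.

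Between genotypes, 2 of 8 were called with vehicle (Arg1 higher and Acod1 lower in Cgas-/- cells), where 9.98% of all genes were called and where Arg1 was chosen. With tau 4 of 8 were called, Arg1 higher and Nos2, Ptgs2 and Acod1 lower, against 10.4% of all genes. The Cgas+/+ libraries with tau, on one side of this comparison, are among those that chose Nos2. With HT-DNA 4 of 8 were called, Arg1 higher and Nos2, Acod1 and Gch1 lower, against 18.1%, with Nos2 in the test only through the Cgas+/+ libraries. The difference of responses between genotypes, for which no minimum fold was set, was called for 3 of 8 with tau (Acod1, Gch1 and Ptgs2) against 6.91% of all genes. It was called for 7 of 8 with HT-DNA, all but Arg2, against 34%, and Nos2 and Arg1 among the 7 rest on the vehicle libraries that chose them. The Nos2 call (-4.96, SE 1.87) was lost in 6 of the 12 fits that left out 1 library, with values from -6.17 to -1.71. The libraries whose absence ended it were Cgas-/- HT-DNA 2 and 3, Cgas-/- vehicle 2, Cgas+/+ HT-DNA 3 and Cgas+/+ vehicle 1 and 2. Direct comparison of the agents called 3 of 8 in Cgas+/+ cells (Nos2 and Ptgs2 higher and Arg1 lower with tau) against 3.27%, where Nos2 was chosen by the tau libraries. In Cgas-/- cells 3 of 8 were called (Nos2, Acod1 and Arg2 higher with tau) against 2.54%, Nos2 again in the test only through Cgas+/+ libraries. For Ptgs2 the excess of tau over HT-DNA was 1.59 (SE 0.17, adjusted p = 9.69e-09) in Cgas+/+ cells and 0.33 (SE 0.19, adjusted p = 0.302) in Cgas-/- cells.

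**Figure D3:**
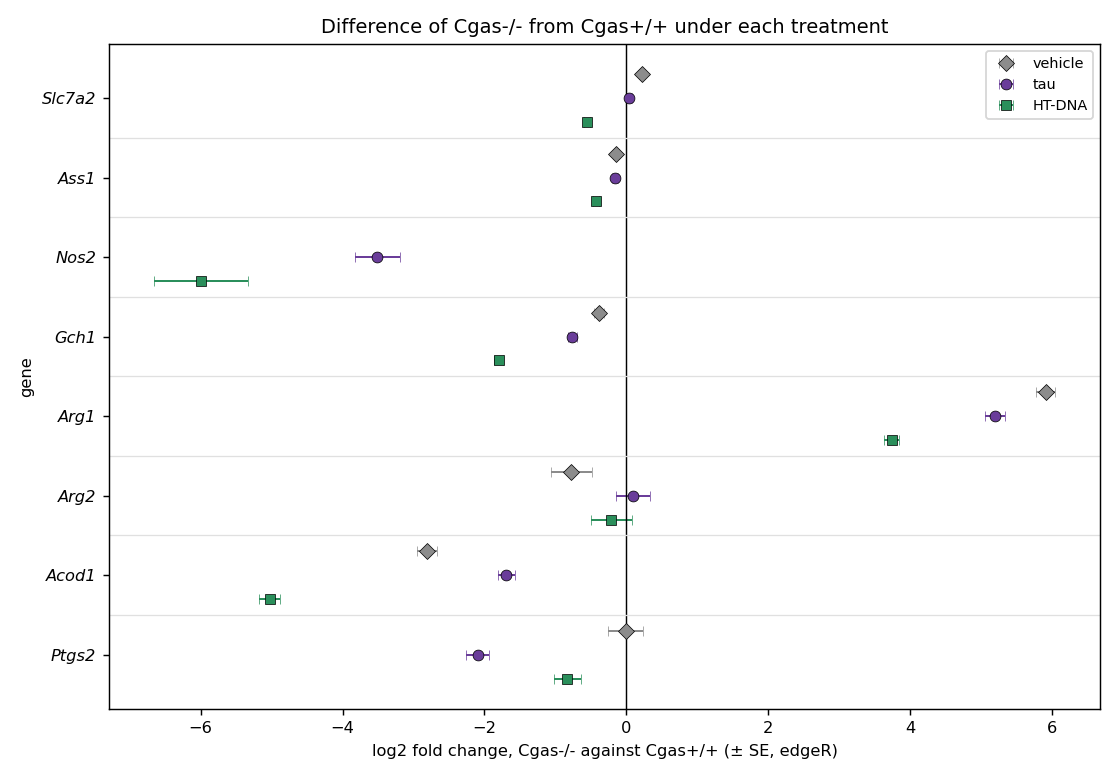
Log2 difference of Cgas-/- from Cgas+/+ cells (horizontal axis, ± SE) for each gene with vehicle (grey diamonds), tau (purple circles) and HT-DNA (green squares). Arg1 lies at 3.74 to 5.91 on the side of Cgas-/- cells, and Nos2, Gch1 and Acod1 lie on the side of Cgas+/+ cells, farthest with HT-DNA. Nos2 with vehicle is left out, since its groups held 7 and 3 counts in all.

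The lists of related genes added few names to those of the set. Of all genes, tau called 3.41% in Cgas+/+ and 2.73% in Cgas-/- cells, and HT-DNA called 8.08% in Cgas+/+ cells. Among 15 tested arginine and urea cycle enzymes, tau called 1 in Cgas+/+ and 2 in Cgas-/- cells, which were the members Ass1 and Arg2 and no other gene. Among 14 polyamine genes HT-DNA raised Smox (spermine oxidase) in Cgas+/+ cells by 1.58 (SE 0.06, adjusted p = 2.38e-18). The list of cationic amino acid transporters also holds carriers of other amino acids, Slc7a11 and Slc7a8 among them. Among its 11 tested genes tau called Slc7a11, the cystine importer, in both genotypes, at 1.04 (SE 0.04) and 1.07 (SE 0.04, adjusted p = 2.71e-17). HT-DNA instead raised Slc7a8 in Cgas+/+ cells by 1.35 (SE 0.05, adjusted p = 1.61e-17). Of 25 itaconate and tricarboxylic acid cycle genes, Acod1 was the only gene called with tau in either genotype or with HT-DNA in Cgas+/+ cells. Among 10 nitric oxide synthase and tetrahydrobiopterin genes, Nos2 and Gch1 were the only genes called with either agent.

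Of 21 tested prostanoid and leukotriene genes, tau called 2 higher and 1 lower (14.3%) in both genotypes. Of all genes, 3.41% were called in Cgas+/+ and 2.73% in Cgas-/- cells. The 2 higher genes were Ptgs2 and Ptges, the inducible prostaglandin E synthase that acts after cyclooxygenase. The lower gene was Hpgd, the enzyme that breaks prostaglandins down. Ptges was higher by 2.53 (SE 0.11) in Cgas+/+ and 2.98 (SE 0.12, adjusted p = 3.24e-17) in Cgas-/- cells. Hpgd was lower, at -1.55 (SE 0.11) and -1.04 (SE 0.12, adjusted p = 1.71e-07). The tau responses of Ptges and Hpgd differed between genotypes by 0.45 (SE 0.17, adjusted p = 0.120) and 0.52 (SE 0.16, adjusted p = 0.0555), neither called. HT-DNA in Cgas+/+ cells called Ptgs2 and Alox12 higher and Hpgd lower (14.3% of the list, beside 8.08% of all genes). The median log2 difference of the list with tau was -0.15 in Cgas+/+ and -0.05 in Cgas-/- cells, beside -0.01 and 0.01 for all genes.

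In the alternative activation list, calls in Cgas-/- cells went in both directions. Of its 10 tested genes 5 were higher and 1 lower in Cgas-/- cells with vehicle, Arg1 among the 5, beside 9.98% of all genes, with Vegfa at 2.27 (SE 0.08), Tgm2 at 1.55 (SE 0.08) and Mrc1, the mannose receptor, at -1.47 (SE 0.06). With tau 4 were higher and 2 lower, beside 10.4% of all genes. With HT-DNA, where 18.1% of all genes were called, 3 were higher and 2 lower, among them Il1rn at -2.18 (SE 0.07, adjusted p = 7.62e-21). Of the 15 tested arginine and urea cycle genes, the same 4 were called between genotypes under each treatment. Of all genes, 9.98% were called with vehicle, 10.4% with tau and 18.1% with HT-DNA. Arg1 and Pycr1 were higher and Gatm and Azin2 lower in Cgas-/- cells. Gatm, which draws arginine into creatine synthesis, stood at -2.04 (SE 0.06, adjusted p = 4.28e-21) with tau. Among 26 transcription factors chosen for these genes, Irf7 and Stat2 were lowest in Cgas-/- cells with vehicle, at -5.32 (SE 0.17) and -3.58 (SE 0.11), and Klf4 was higher at 1.54 (SE 0.09). With tau both rose in Cgas-/- cells, Irf7 by 4.83 (SE 0.17, adjusted p = 4.46e-18) and Stat2 by 2.74 (SE 0.11, adjusted p = 2.84e-17). HT-DNA called none of the 131 tested genes of the 8 lists in Cgas-/- cells by edgeR or DESeq2. Without HT-DNA library 1, edgeR called 0 of 133. Of all genes, 0.0219% were called by edgeR with every library kept. In that fit 35 of the 131 genes were at an unadjusted p under 0.05, beside 12.3% of all genes.

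**Figure D4:**
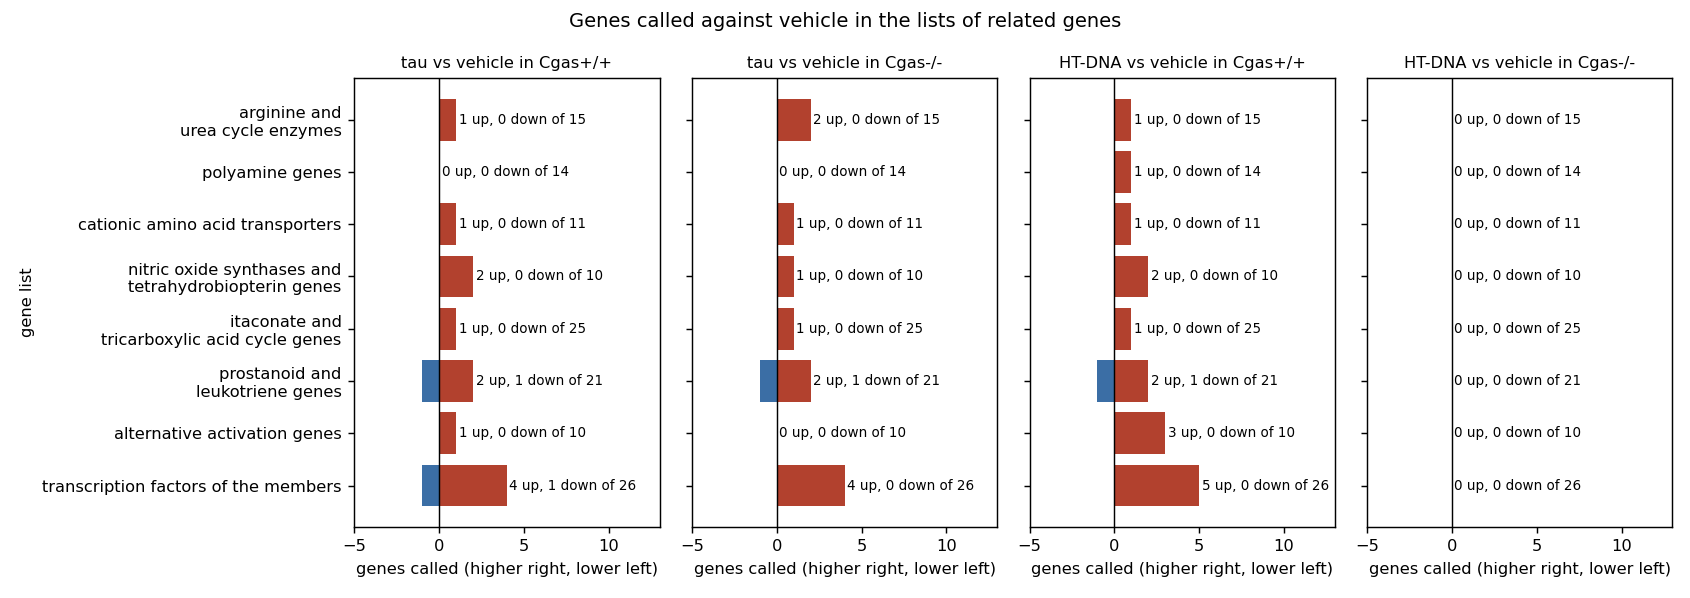
Number of genes called higher (red, right) and lower (blue, left) than vehicle in 8 lists of related genes, for tau and HT-DNA in each genotype. Each bar is labelled with its counts and the number tested, and HT-DNA in Cgas-/- cells has no bar in any list.

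The genes whose log2 level tracked each member most closely over the 18 libraries differed from member to member. Among 11534 genes with a mean of at least 1 CPM, those nearest to Nos2 were Nfkb1 (Pearson r = 0.958), Mvp (0.957) and M6pr (0.954), and those near to Acod1 included Gbp6 (0.990) and AW112010 (0.986). Gch1 was nearest to B430306N03Rik (0.996), Cd47 (0.994) and Map2k1 (0.993), Ass1 to Adam17 (0.986), Ninj1 (0.983) and Slc2a6 (0.982), and Slc7a2 to Marcksl1 (0.970), Ext1 (0.966) and Spata13 (0.965). Arg1 was nearest to Sh3bgrl (0.990), Gnai3 (0.989) and Cd53 (0.988), and Ptgs2 to Nfe2l2 (0.941), Zc3h12c (0.935) and Bcl10 (0.932). The low-count gene Arg2 had the weakest neighbours, Col27a1 (0.863), Clmp (0.858) and Man1a (0.853). No gene was named for 2 members. These are descriptions over libraries that share the same 6 groups.

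In whole hippocampus, which holds neurons and glia together, no difference between P301S and Ntg mice was called for the 6 testable members. Of the 8 genes 6 passed the filter among 16453 genes, and none was called by edgeR or DESeq2 or had an unadjusted p under 0.05, where 1.36% of all genes were called at an absolute log2 difference over 0.5. Ptgs2, which neurons also express, ran from 12 to 36.3 CPM (median 21.6) in Ntg and from 7.64 to 37.3 CPM (median 16.8) in P301S mice. Ass1 ran from 16.1 to 32.7 CPM (median 27.8) and from 14.6 to 40.4 CPM (median 33.1), and Slc7a2 from 20.4 to 29.3 CPM (median 25.4) and from 18.02 to 32.6 CPM (median 24.2). The groups overlapped for each of these genes. Nos2 had medians of 0.456 and 0.487 CPM, Gch1 of 1.03 and 1.26 CPM and Arg2 of 2.43 and 3.33 CPM in Ntg and P301S mice, again with overlap. Log2 differences of the 6 ranged from -0.29 (Ptgs2, SE 0.32, adjusted p = 0.742) to 0.27 (Gch1, SE 0.16, adjusted p = 0.463, and Arg2, SE 0.20, adjusted p = 0.579).

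Acod1 and Arg1 fell under the count filter in hippocampus. They were tested on their own, after the data were seen, with adjustment over these 2 genes and not over the other members. Acod1 had 0 counts in 4 of the 7 Ntg mice and at most 3 in the others, 7 counts in all, while the 6 P301S mice had 2 to 11 counts, 36 in all. Its mean was 0.0342 ± 0.0496 CPM (SD, n = 7) in Ntg and 0.195 ± 0.107 CPM (SD, n = 6) in P301S mice, and an exact permutation test of the mean, two-sided, gave p = 0.00524, or 0.0105 adjusted over the 2 genes. The ranges of the groups overlapped. In the same mice the 13 microglial markers summed to 411 to 512 CPM (median 457) in Ntg and 390.2 to 931 CPM (median 769) in P301S mice, and the 10 astrocyte markers to 4912 to 5733 CPM (median 5189) and 5164 to 8971 CPM (median 7424). Called were 1 of 13 (Trem2) and 1 of 10 (Gfap), beside 1.36% of all genes. No marker of either list was at 0 in every mouse of a group, and the part of these markers in the Acod1 difference was not tested. Arg1 had 42 counts over the Ntg and 54 over the P301S mice, at 0.214 ± 0.187 CPM (SD, n = 7) and 0.309 ± 0.128 CPM (SD, n = 6), with an exact permutation p of 0.315. Such a test with 3 against 3 libraries could not go below 0.10, so none was run on the microglia.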

How the data were processed

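RNA-seq libraries of mouse primary microglia (18) and whole hippocampus (13) were analysed from the deposited tables of raw read counts per gene, which the authors gave without normalization. The submitters' processing notes name the GRCm38 build, edgeR and limma; the aligner, the read counter and the annotation are not given in the sources used here. The labels name a 3′ tag library kit and the study's methods another library service, so levels were not compared between genes. Every column was mapped to a sample (0 left over).

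Here, counts were scaled by trimmed mean of M-values, filtered with filterByExpr and tested with edgeR 4.0.16 (quasi-likelihood F test, R 4.3.3), with all 6 microglial groups in a single fit, and adjusted over all genes by Benjamini-Hochberg. A gene was called at an adjusted p under 0.05 and an absolute log2 fold change over 1 in microglia and over 0.5 in hippocampus, with no minimum for differences of responses. The standard error is the fold change over the root of F. The procedure was tested on simulated data. Normalized CPM is the count over the effective library size. No identical or near-identical libraries were found. DESeq2 1.42.0 and the other settings named in the closing section were alternatives. Exact permutation tests of Acod1 and Arg1 in hippocampus were added after the data were seen.

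The members, the lists of related genes and marker genes and the tests were chosen with earlier results of these data known. All members are named in every group. Of each list at most the 3 largest rises and falls past the thresholds in a comparison are named, and for each member the 3 genes with the highest Pearson correlation of log2 CPM (prior count 2, mean CPM of at least 1); a few genes so selected are not reported here. Replicate numbers recur across groups, but deviations from group means of same-numbered libraries correlated only from -0.085 to 0.0823 (median -0.00857, 45 pairs), so the numbers were not treated as pairs. Promoters came from the RefSeq table (GRCm38.p6), and gene positions from GENCODE.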

Additional observations from a re-analysis of the deposited data

Results flagged for a closer look

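Responses to a treatment that differed between the genotypes, by the test of the difference itself (log2 response in Cgas-/- minus that in Cgas+/+ cells), were found for 3 members with tau. Ptgs2 responded less without Cgas (-2.09), as did Gch1 (-0.38), whereas the fold response of Acod1 was larger (1.12) from a lower level with vehicle. With HT-DNA the responses of Acod1 (-2.22), Gch1 (-1.41), Ptgs2 (-0.82), Slc7a2 (-0.78) and Ass1 (-0.29) were all smaller without Cgas. Of these, the value of Gch1 with tau and that of Ptgs2 with HT-DNA lost the call when single libraries were left out.

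In hippocampus, Ntg mouse 71 stood apart from the other 6 Ntg mice in Arg1, at 0.607 CPM from 16 counts, where the others ranged up to 0.281 CPM. With 16 groups of values examined in this way (8 genes in Ntg and P301S mice), chance flags about 1 in 20.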

How the results depend on the processing

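Of the single-gene values recomputed under other settings, 501 kept direction and side of the thresholds, 28 gained the call, 5 lost it and 2 changed sign; with 1 library left out the numbers were 661, 5, 17 and 19. The number of members called changed by over 1.5 times in few places. The cause was not tested, except where the setting itself is a looser threshold or the reason is named. Without a minimum fold the count rose from 5 to 8 for tau and from 0 to 2 for HT-DNA in Cgas-/- cells, from 2 to 6 between genotypes with vehicle, from 4 to 7 with HT-DNA, and from 3 to 7 for tau against HT-DNA in each genotype. Tau against vehicle in Cgas-/- cells gave 3 when only the compared groups were fitted (Acod1, Arg2 and Ptgs2). Nos2 did not pass the low-count filter in that fit, and Ass1 fell under the fold threshold. The difference of tau responses gave 5 by DESeq2. Leaving out single libraries moved the count for HT-DNA in Cgas-/- cells between 0 and 1 (Ptgs2, without Cgas-/- vehicle library 3). A fit with the replicate number as a block called 5 members with tau in Cgas-/- cells and left the number of members called in every other microglial comparison as it was.

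Values near 0 or from few counts changed sign. Ptgs2 between genotypes with vehicle went from -0.0076 to 0.0118 without the low-count filter and to 0.0085 with only the compared groups, and ranged from -0.25 to 0.23 with single libraries left out. The ranges so obtained were -0.10 to 0.36 for Arg1 with tau in Cgas+/+, -0.0523 to 0.275 for Arg2 between genotypes with tau, -0.0524 to 0.00698 for the difference of Ass1 tau responses, and -0.0195 to 0.0641 for Gch1 with HT-DNA in Cgas-/-. Fitted values of Nos2 between groups of few counts ranged from -4.28 to 0.18 (genotypes with vehicle), -1.29 to 2.58 (HT-DNA in Cgas-/-) and -3.68 to 0.78 (difference of tau responses). In hippocampus Nos2 ranged from -0.029 to 0.22 and Slc7a2 from -0.11 to 0.0653. Counts of 15 to 84 limit Arg2, and 0 to 37 limit Nos2 outside Cgas+/+ cells with tau or HT-DNA.

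Over all genes, the hippocampal fit called 223 genes by edgeR, 583 by DESeq2, 126 with sex in the model and 14 to 652 with single mice left out. HT-DNA in Cgas-/- cells called 3 genes by edgeR (2 of them higher), 5 by DESeq2 (2 higher), 25 without the low-count filter, 8 with only the compared groups and 0 to 6 with single libraries left out. The difference of tau responses called 945 genes, or 589 without Cgas+/+ tau library 3. Without a minimum fold, tau called 3829 and 2282 genes in Cgas+/+ and Cgas-/- cells in place of 467 and 374, HT-DNA 6488 and 180 in place of 1105 and 3, the genotype comparisons 7110, 7022 and 8646 (vehicle, tau, HT-DNA) in place of 1365, 1421 and 2482, and tau against HT-DNA 4768 and 2260 in place of 447 and 347.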

Other observations

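In hippocampus, 223 of 16453 genes (1.36%) were called by edgeR and 583 by DESeq2. The lists of related genes held 7 called genes among 139 tested by edgeR and 16 by DESeq2. All 7 called by edgeR were higher in P301S mice. They were Clec7a, a receptor for beta-glucans that marks disease-associated microglia, at a log2 difference of 5.62 (SE 0.88, adjusted p = 0.0156), the interferon regulatory factors Irf7 at 2.42 (SE 0.46, adjusted p = 0.0303) and Irf8 at 1.56 (SE 0.33, adjusted p = 0.0327), and Stat3 at 0.52 (SE 0.11, adjusted p = 0.0384). The others were thromboxane synthase Tbxas1 at 1.30 (SE 0.28, adjusted p = 0.0370), the interleukin-4 receptor chain Il4ra at 0.89 (SE 0.19, adjusted p = 0.0370) and Sat1, which acetylates polyamines for breakdown, at 0.67 (SE 0.14, adjusted p = 0.0303). The microglial markers had a median log2 difference of 0.57 and the astrocyte markers of 0.32 in the same comparison, and their part in these calls was not tested. None of the 7 is among the 8 enzyme genes. The number of genes called in hippocampus, 223 of all tested, ran from 14 to 652 as single mice were left out, and calls of the 7 genes were not followed through those fits.

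In microglia with HT-DNA, 3 of 14 polyamine genes (21.4%) were called between genotypes, and 3 of 11 in the cationic amino acid transporter list (27.3%). Of all genes 18.1% were called. The transporter list also holds carriers of other amino acids, Slc7a8 among them. With vehicle the counts were 0 and 1, beside 9.98%, and with tau 1 and 1, beside 10.4%. Spermidine synthase Srm was higher in Cgas-/- cells by 1.78 (SE 0.08, adjusted p = 5.63e-17) and the arginine transporter Slc7a1 by 1.39 (SE 0.05, adjusted p = 6.78e-20), while Slc7a8 was lower at -2.78 (SE 0.06, adjusted p = 2.51e-24), Smox at -1.35 (SE 0.06, adjusted p = 3.35e-18) and Sat1 at -1.33 (SE 0.05, adjusted p = 9.66e-20). The tau responses of Irf7 and Stat2 were larger without Cgas, by 3.26 (SE 0.22, adjusted p = 4.20e-11) and 1.72 (SE 0.14, adjusted p = 2.10e-09). Both genes started from a lower level with vehicle in Cgas-/- cells, by more on the log2 scale than these differences.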
